A study of Mus musculus with 20 samples.

Results

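Visceral yolk sacs of mouse conceptuses that were cultured with mono-2-ethylhexyl phthalate (MEHP) and had a neural tube defect (NTD) were set against yolk sacs of control conceptuses without NTD. MEHP is the monoester that the body makes from the plasticizer diethylhexyl phthalate. Each group holds 3 of the 20 arrays of the study, and the spread was estimated over all 10 yolk sac arrays. All 20794 genes on the arrays were tested with no filter on low levels. Conceptuses of the CD-1 strain were taken from untreated dams on gestational day 8 and grown for 24 h in whole embryo culture. The medium held 0.01% DMSO in the control groups and 100 µg/ml MEHP in the exposed groups, and on day 9 embryo and yolk sac were dissected apart. The other arrays used here are 3 yolk sacs with MEHP and no NTD, 1 control yolk sac with NTD, and, for embryos, 3 controls without NTD and 3 with MEHP and NTD. Every group thus shares the strain, the culture and the dissection, and NTD was scored in the conceptus and not in the yolk sac itself. No source used here says whether a sample pools several conceptuses or how litters were shared out, so p-values measure only the spread between these samples, which may be technical. Arrays were grouped as in the authors' deposited comparison tables, because sample headings that come with a copy of the values name another group for 13 of the 20 arrays. Array numbers below are names only.

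The visceral yolk sac is the membrane through which the mouse embryo is fed before the placenta works. Its outer layer, the visceral endoderm, takes up maternal protein by the receptors megalin and cubilin, breaks it down in lysosomes, and secretes plasma proteins such as alpha-fetoprotein, transthyretin and apolipoproteins. Its inner layer is mesoderm, mesothelium and vessels that hold the first blood cells. Phthalate monoesters are known as activators of the peroxisome proliferator-activated receptors (PPAR), which switch on fatty acid oxidation in liver.

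Values are log2 levels, and a log2 difference of 1 is a ratio of 2. The 3 control yolk sacs and the 3 MEHP yolk sacs with NTD differed in more than the label, and these facts stand beside every result below. Control arrays had Actb 3'/5' log2 ratios of 0.71, 0.96 and 0.61, and MEHP arrays with NTD had 0.48, 0.58 and 0.53. A larger ratio goes with more broken RNA. The mean log2 level of 9 nonspecific control probe sets was 3.87, 4.08 and 4.02 in controls and 3.79, 3.81 and 3.75 with MEHP and NTD. Neither measure overlapped between the groups, and all control arrays also precede all MEHP arrays in array order, so order and exposure cannot be told apart. Tissue identity was as labelled. The 10 visceral endoderm markers had a mean log2 level of 12.01 to 12.14 in controls and 11.99 to 12.09 with MEHP and NTD. The 5 embryonic neural markers stood at 3.50 to 3.63 and 3.27 to 3.53, against 8.86 to 9.10 in control embryos, so neural markers were near the floor. In whole membranes, fewer cells of a type and less RNA per cell cannot be told apart. The female-specific Xist was high (10.53 to 11.75) on all 6 arrays. The Y-linked Ddx3y was high as well on control 1 (8.03), control 3 (7.62) and MEHP with NTD 3 (8.55), and stood at 3.89 to 4.12 on the other arrays.

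With MEHP and NTD, 494 genes (2.38% of those tested) passed an adjusted p of 0.05, 291 higher (1.4%) and 203 lower (0.976%) than in controls. The test was limma's moderated test with Benjamini-Hochberg adjustment over all genes. Most differences were small. The called rises had a median of 0.44 and the called falls of -0.36, and 14 rises and 1 fall exceeded 1 log2 unit. The median over all genes was -0.01. Every called gene had values that did not overlap between the 3 and 3 arrays, but so did 5309 genes in all (25.5%), called or not. Falls lay lower on the scale than rises, since 113 of 203 falls (55.7%) and 58 of 291 rises (19.9%) had a mean level over all 20 arrays under that of the median gene. Of the called genes, 64 rises and 35 falls carry a symbol of a predicted, clone, sequence-tag or microRNA type, counted here as not official. Apart from D19Ertd409e these are not named.

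**Figure D1:**
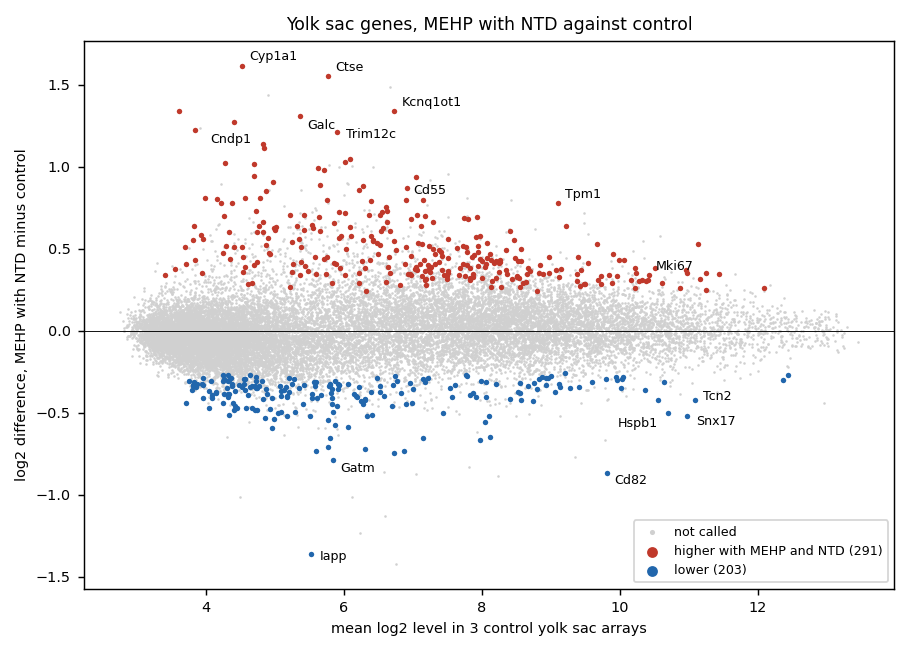
Each point is 1 of the 20794 genes. The horizontal axis is its mean log2 level in the 3 control yolk sacs and the vertical axis the log2 difference of MEHP yolk sacs with NTD from them. The 291 called rises reach 1.62 (Cyp1a1) and the 203 called falls reach -1.36 (Iapp), and most called genes lie within 0.5 of 0.

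The number of calls rested on all 6 arrays, and on the other 4 yolk sac arrays for the estimate of the spread. A fit on the 6 arrays alone called 8 rises and 7 falls. With the others kept, it was 112 rises and 69 falls without control 1, 22 and 10 without control 2, and 13 and 5 without control 3. It was 118 and 74 without MEHP-with-NTD array 1, 68 and 31 without array 2, and 26 and 5 without array 3. Only 9 rises and 4 falls passed in all 6 of these fits. They are the rises Cyp1a1, Cndp1, Ubxn2b, Cd55, Pcdh18, Adamts2, Gnptg, Hmgb2 and D19Ertd409e and the falls Iapp, Eepd1, Pmf1 and Snx17, of which Adamts2, Gnptg, Hmgb2 and D19Ertd409e are named after their values were seen. Without controls 1 and 2, which have the highest Actb ratios, no gene passed, though 2843 had an unadjusted p under 0.05. With the nonspecific level as a covariate 1 gene passed, and 2219 had an unadjusted p under 0.05. That level itself parts the groups, so such a fit cannot tell it apart from exposure.

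**Figure D2:**
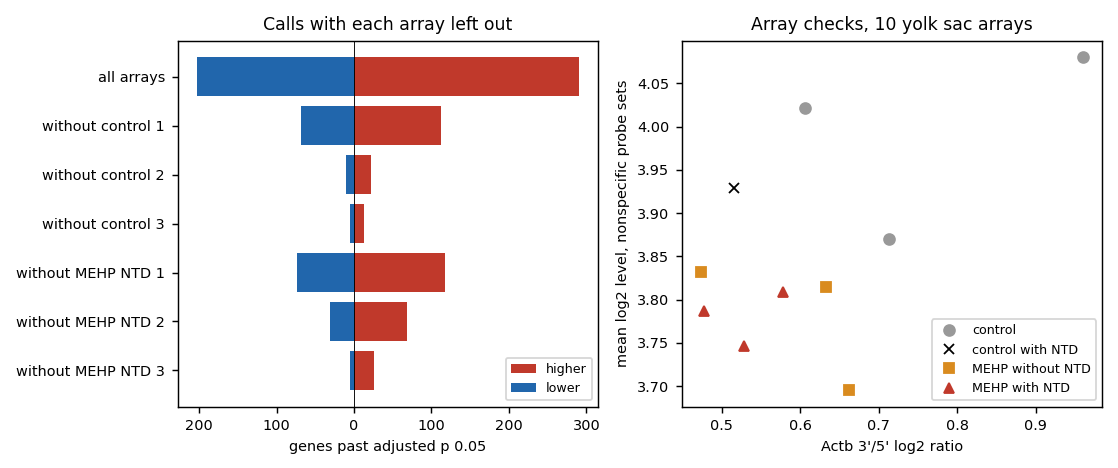
Left, bars to the right and left of 0 count genes called higher and lower with all arrays and with each of the 6 arrays left out. Right, each symbol is 1 of 10 yolk sac arrays, placed by its Actb 3'/5' log2 ratio and the mean log2 level of 9 nonspecific probe sets. Calls fall from 291 and 203 to as few as 13 and 5, and the 3 control arrays lie above and to the right of the 3 MEHP arrays with NTD.

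Cyp1a1, the cytochrome P450 that the aryl hydrocarbon receptor induces and that oxidizes aromatic compounds, rose more than any other called gene. Its log2 level was 4.54, 4.72 and 4.32 in controls and 5.85, 6.24 and 6.33 with MEHP and NTD. All 3 exposed arrays lay more than 1 unit above the highest control. The difference was 1.62 ± 0.14 (SE, 3 arrays each, limma adjusted p = 0.00339), and it stayed called without any 1 of the 6 arrays (1.51 to 1.76). Without controls 1 and 2 it was 1.82. MEHP yolk sacs without NTD stood at 6.49, 6.58 and 6.30, and the 1 control with NTD at 5.05. Of 30 measured genes for cytochromes P450, conjugating enzymes and drug transporters, 2 rose (6.67% against 1.4% of all genes), 0 fell and 28 did not pass, and the list's median was -0.01. Like all lists below, this one was chosen with earlier results of these data known, so such shares are no independent evidence.

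The other riser of that list was Cyp3a13, a P450 of liver and gut. Its levels were 4.33, 4.50 and 4.32 in controls, 5.41, 5.24 and 4.84 with MEHP and NTD, and 5.82 in the control with NTD, the highest of the 10 yolk sac arrays. The difference was 0.78 ± 0.16 (adjusted p = 0.0413), and the call was lost without any 1 of the 6 arrays (adjusted p up to 0.127). Outside the list Cyp39a1 rose as well, and it is named after its values were seen. Of 75 genes with Cyp symbols 3 rose and 0 fell (4% called against 2.38% of all genes). The other aryl hydrocarbon receptor genes did not pass. Cyp1b1 had a difference of 0.29 (adjusted p = 0.175), the receptor Ahr 0.18, its partner Arnt 0.07, its repressor Ahrr 0.03 and Tiparp 0.03.

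The start of Cyp1a1 is shown because that gene led the comparison. RefSeq places its start window at chr9:57697363-57697662 on the plus strand of GRCm38.p6, 250 bases before and 50 after the start. Capitals mark the letters GCGTG, 54 bases before the start, and TATAAA, 30 bases before it. GCGTG is only the core of the element that the aryl hydrocarbon receptor binds. A match to the core alone does not show a receptor site, and binding was not analysed here.
Cyp1a1: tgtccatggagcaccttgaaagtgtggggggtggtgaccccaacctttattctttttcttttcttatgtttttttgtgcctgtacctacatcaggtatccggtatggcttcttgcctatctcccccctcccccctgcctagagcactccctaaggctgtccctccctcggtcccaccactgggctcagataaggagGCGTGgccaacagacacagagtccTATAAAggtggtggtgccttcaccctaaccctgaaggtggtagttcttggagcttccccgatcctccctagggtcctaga
GCGTG was chosen after Cyp1a1 had been seen to lead. Searched on both strands it is common, and it occurs in 32.4% of all 32851 such windows, in 8 of the 16 named rises with a window and in 13 of the 21 named falls. Here and below a named gene counts if any of its windows matches, while percentages are of single windows. These measures are not alike. TATAAA occurs in 13.6% of windows and in 3 named rises and 3 named falls. AGGTCA, the letters that nuclear receptors such as PPAR read, occurs in 16.3% of windows, in 1 named rise (Airn) and in 4 named falls. A repeat of it after 1 base is in none of the named windows. It is in only 0.0396% of all windows, so that absence tells nothing. TGATGNAAN, the element of amino acid stress, is in none of the named windows (3.95% of all), and the antioxidant element TGACNNNGC is in 2 named rises and 5 named falls (12.4% of all).

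Among 35 measured imprinted genes 2 rose (5.71% against 1.4%), 0 fell and 33 did not pass. Both are long noncoding RNAs that silence neighbouring genes on the paternal chromosome. Kcnq1ot1 stood at 7.06, 6.23 and 6.89 in controls and 8.10, 8.41 and 7.69 with MEHP and NTD. The groups did not overlap, the difference was 1.34 ± 0.22 (adjusted p = 0.0277), and its 4 other probe sets were higher too (0.03 to 0.95). It passed without control 1 (1.51) or MEHP-with-NTD array 3 (1.53), and not without any of the other four (adjusted p up to 0.0754). Airn, transcribed against Igf2r, stood at 7.24, 6.87 and 7.31 in controls and 7.94, 8.12 and 7.75 with MEHP and NTD. Its difference was 0.80 ± 0.13 (adjusted p = 0.0281), with 2 of 3 other probe sets higher and 1 lower (-0.17), and it passed only without control 1 (0.85).

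The genes that these RNAs silence did not pass in these yolk sacs. Cdkn1c, a cell cycle inhibitor next to Kcnq1ot1, differed by -0.16 (adjusted p = 0.688), Phlda2 by 0.02 and Slc22a18 by 0.08, and Igf2r by -0.09 (adjusted p = 0.515). The growth factor gene Igf2 differed by 0.06 and H19 by -0.03. In MEHP yolk sacs without NTD Kcnq1ot1 stood at 7.87, 8.08 and 8.19, and Airn at 7.73, 7.62 and 7.94.

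Both RNAs start from regions that carry DNA methylation on the maternal copy, so their start windows are printed with every CG in capitals. Kcnq1ot1 lies at chr7:143296498-143296797 on the minus strand and Airn at chr17:12741061-12741360 on the plus strand of GRCm38.p6, as RefSeq gives them.
Kcnq1ot1: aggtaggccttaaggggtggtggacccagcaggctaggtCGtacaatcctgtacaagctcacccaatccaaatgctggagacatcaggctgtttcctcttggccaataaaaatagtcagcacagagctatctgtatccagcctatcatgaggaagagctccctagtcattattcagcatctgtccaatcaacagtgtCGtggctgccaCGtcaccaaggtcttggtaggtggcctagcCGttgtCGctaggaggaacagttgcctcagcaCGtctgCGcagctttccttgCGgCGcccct
Airn: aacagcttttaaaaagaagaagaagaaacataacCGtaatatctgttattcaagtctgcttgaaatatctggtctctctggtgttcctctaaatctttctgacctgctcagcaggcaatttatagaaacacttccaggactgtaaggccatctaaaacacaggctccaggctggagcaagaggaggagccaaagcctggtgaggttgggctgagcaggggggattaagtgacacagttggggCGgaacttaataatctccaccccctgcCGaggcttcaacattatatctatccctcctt
The Kcnq1ot1 window holds 9 CG and the Airn window 3, where the median window of all genes holds 7. Methylation of these sites was not analysed here.

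The leading genes are the 15 largest called rises and 15 largest called falls with an official symbol and, in the group where they are higher, a mean level at or above that of the median gene. Over all 20 arrays 8 of these 30 lie below the median gene, namely Cyp1a1, Cndp1, Npy, Meltf, Rab3d, Trpv2, Unc5cl and Hapln3. The other leading rises are taken gene by gene. Ctse encodes cathepsin E, an aspartic protease of endosomes. It stood at 5.90, 5.56 and 5.86 in controls and 8.19, 6.90 and 6.89 with MEHP and NTD. Array 1 was well above the other MEHP arrays with NTD, and the groups did not overlap. The difference was 1.55 ± 0.33 (adjusted p = 0.0437), and the call was lost without any 1 of the 6 arrays (1.12 to 1.77, adjusted p up to 0.113). Galc, the lysosomal galactosylceramidase, stood at 4.61, 5.99 and 5.50 in controls and 6.60, 6.59 and 6.84 with MEHP and NTD (1.31 ± 0.28, adjusted p = 0.0431). Control 1 was its low value, and without it the difference was 0.93. The call held only without control 1 or control 2 (adjusted p up to 0.132 otherwise). Cndp1 encodes carnosine dipeptidase. It rose from 4.997, 4.68 and 4.86 to 5.79, 6.11 and 5.96 (1.11 ± 0.10, adjusted p = 0.00339), and MEHP yolk sacs without NTD stood between, at 5.22, 5.33 and 5.16.

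Cd55, which shields cells from complement, was one of the tightest rises. Its levels were 6.91, 6.94 and 6.83 in controls and 7.68, 7.66 and 7.73 with MEHP and NTD (0.80 ± 0.06, adjusted p = 0.00339). Ubxn2b, a cofactor of the p97 segregase, moved from 5.77, 5.58 and 5.59 to 6.53, 6.53 and 6.54 (0.89 ± 0.09, adjusted p = 0.00569). One other Ubxn2b probe set was lower (-0.21, unadjusted p under 0.05), and the mean of all its probe sets differed by 0.29 (adjusted p = 0.0395). The protocadherin gene Pcdh18 rose by 0.72 ± 0.09, and Trim12c, of the tripartite motif family, by 1.21 ± 0.15. Trim12c lost its call without control 3 (adjusted p = 0.0611). The remaining 6 of the 15 leading rises passed in 0 to 2 of the 6 fits that leave out an array. These were Npy (0.85), a neuropeptide, Tpm1 (0.78), an actin-binding tropomyosin, Adat2 (0.76), a tRNA deaminase subunit, Tmem14a (0.73), Slco1a6 (0.72), an organic anion transporter, and Airn. One other probe set of Tpm1 was lower (-0.22, unadjusted p under 0.05), so isoforms of that gene may differ.

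**Figure D3:**
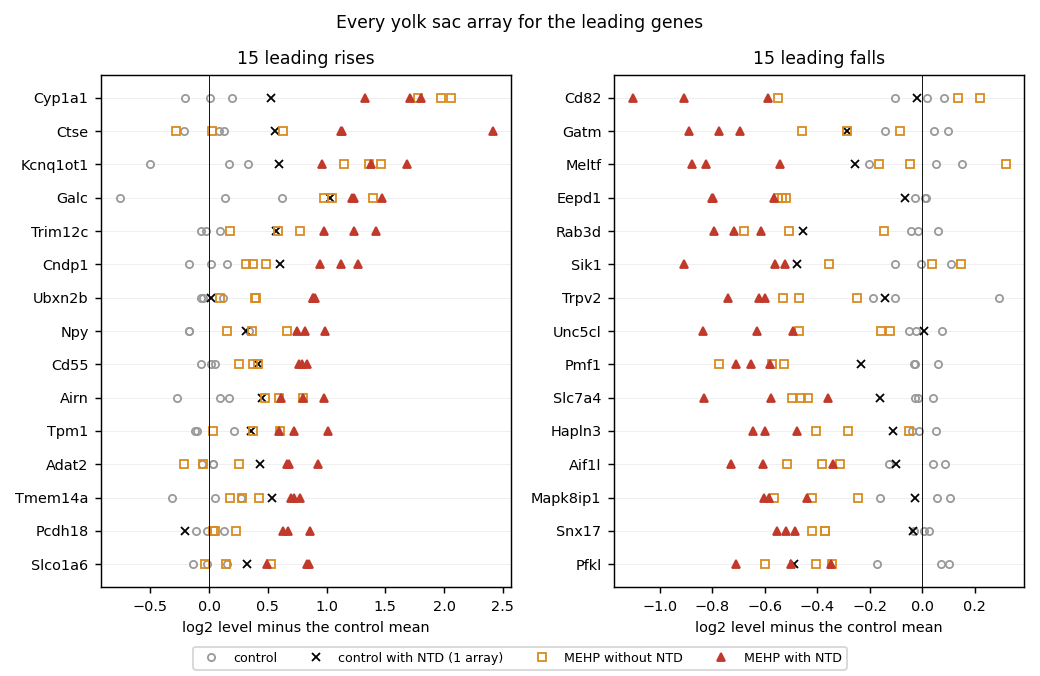
Every yolk sac array for the 15 leading rises (left) and falls (right), as log2 level minus the mean of the 3 controls. Circles are controls, the cross the 1 control with NTD, squares MEHP without NTD and triangles MEHP with NTD. For Cyp1a1 the squares lie among or above the triangles, while for Cd55 they lie between controls and triangles.

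Iapp, which encodes the islet hormone amylin, had the largest fall of all called genes, though its level lay below that of the median gene (5.72). Its levels were 5.30, 5.48 and 5.78 in controls and 4.38, 4.02 and 4.08 with MEHP and NTD, with no overlap. The difference was -1.36 ± 0.12 (adjusted p = 0.00339), and it stayed called without any 1 of the 6 arrays (-1.47 to -1.23). The 3 exposed values lie near the level of the nonspecific probe sets, and its 3 other probe sets had differences of -0.16 to -0.05. MEHP yolk sacs without NTD stood at 4.40, 4.34 and 4.38, and the control with NTD at 5.44. Pdx1, the pancreatic and duodenal transcription factor, fell from 5.04, 4.72 and 4.82 to 4.27, 4.32 and 4.40 (-0.53 ± 0.08, adjusted p = 0.0252). It is named after its values were seen. Of the 26 genes of gut, liver and pancreas endoderm in the list that holds them, 2 rose, 3 fell and 21 did not pass, where 1.4% of all genes rose and 0.976% fell. That list was drawn up from genes noted earlier in these yolk sacs, so its count is no independent evidence.

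Gatm, which makes the precursor of creatine, fell from 5.88, 5.94 and 5.70 to 5.14, 5.06 and 4.95 (-0.79 ± 0.10, adjusted p = 0.0143). It passed in 4 of the 6 fits that leave out an array, and not without control 2 or MEHP-with-NTD array 3 (adjusted p up to 0.0587). The tetraspanin gene Cd82 stood at 9.71, 9.83 and 9.90 in controls and 9.23, 8.91 and 8.71 with MEHP and NTD (-0.87 ± 0.19, adjusted p = 0.048). It lost the call in all 6 of those fits and after cyclic loess (adjusted p = 0.0501). Snx17, which returns receptors of the low-density lipoprotein family to the cell surface, fell from 10.98, 11 and 10.95 to 10.46, 10.49 and 10.42 (-0.52 ± 0.05, adjusted p = 0.00577). Eepd1, a nuclease domain protein, moved from 6.28, 6.32 and 6.32 to 5.74, 5.50 and 5.51 (-0.72 ± 0.07, adjusted p = 0.00526). Pmf1, a kinetochore subunit, moved from 8.17, 8.08 and 8.08 to 7.46, 7.53 and 7.40 (-0.65 ± 0.08, adjusted p = 0.0125). Snx17, Eepd1 and Pmf1 passed in all 6 fits.

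Of the other 10 leading falls, Rab3d, a GTPase of secretory vesicles, fell by 0.71, the kinase gene Sik1 by 0.66 and the cation channel gene Trpv2 by 0.65, and these passed in 0 of the 6 fits. The metal-binding melanotransferrin gene Meltf fell by 0.75, Unc5cl by 0.65, the transporter gene Slc7a4 by 0.59, Aif1l by 0.56 and the kinase scaffold gene Mapk8ip1 by 0.54, each passing in 1 of 6. Hapln3, a hyaluronan link protein gene, fell by 0.57 and passed in 2 of 6. Pfkl, the liver phosphofructokinase, was the 1 fall among 30 hypoxia and glycolysis genes (3.33% against 0.976% of all genes). Its difference was -0.52 ± 0.11 (adjusted p = 0.0442), and it passed in 0 of the 6 fits. Named called genes often have more than 1 probe set. Of 55 other probe sets of 28 such genes, 46 pointed the same way as the one used and 9 the other way. With the mean of all probe sets per gene 12 of the 46 named called genes lost the call, namely Airn, Tpm1, Cd82, Slc7a4, Aif1l, Pfkl, Cdkn1a, Tcn2, Mthfd1, Fli1, Bcl2 and Cryab. Among those that passed, the difference was then 0.78 for Kcnq1ot1, 0.48 for Galc, 0.6 for Trim12c and -0.43 for Iapp.

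**Figure D4:**
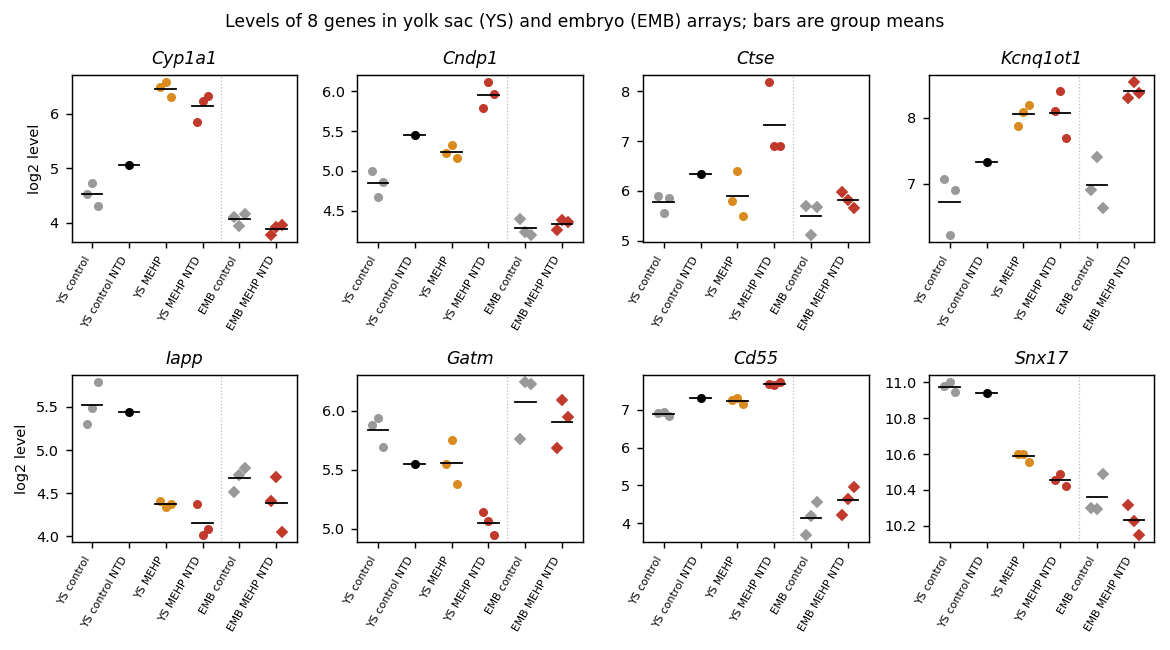
Log2 levels of 8 genes on single arrays, with group means as bars. Circles are yolk sac arrays (control, control with NTD, MEHP without NTD, MEHP with NTD) and diamonds are control embryos and MEHP embryos with NTD. Cyp1a1 and Cndp1 are higher in exposed yolk sacs than in controls (for Cyp1a1 a mean of 6.14 against 4.53) while their embryo groups lie close together, and Kcnq1ot1 is higher in both tissues.

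Few genes of the uptake and secretion programme of the visceral endoderm passed, as among all genes. Of 40 measured endoderm markers and secreted proteins 0 rose, 1 fell (Foxa2) and 39 did not pass. That is 2.5% called against 2.38% of all genes, and the median difference was -0.04. Alpha-fetoprotein (Afp) differed by -0.01 ± 0.06 (adjusted p = 0.926), transthyretin (Ttr) by -0.07 ± 0.05 and apolipoprotein B (Apob) by -0.09 ± 0.08. These 3 genes sit at levels of about 13 where an array has little room to rise. The endoderm factor Foxa2 fell from 9.02, 8.84 and 8.92 to 8.63, 8.64 and 8.52 (-0.33 ± 0.07, adjusted p = 0.0406), a call lost without any 1 array. The uptake receptors megalin (Lrp2, 0.18 ± 0.10), cubilin (Cubn, -0.03 ± 0.09) and the folate receptor Folr1 (0.03 ± 0.09) did not pass. Among 39 endocytosis and lysosome genes 2 were called (5.13% against 2.38%). Ctse rose and Tcn2, which carries vitamin B12, fell (-0.42 ± 0.07, adjusted p = 0.0289). Tcn2 passed only without MEHP-with-NTD array 2. Ctse also belongs to the list drawn up from genes noted earlier in these yolk sacs. None of the 31 nutrient transporters, 28 metal genes, 25 lipoprotein genes or 30 epithelial genes passed.

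Among 46 measured PPAR target and fatty acid oxidation genes 0 rose, 1 fell (2.17% against 2.38% of all genes) and 45 did not pass. Of these genes 24 lay higher and 22 lower, 12 had an unadjusted p under 0.05 (4327 of all 20794 genes did), and the median was 0.01. The fall was Ucp3, a mitochondrial carrier protein, from 6.14, 6.28 and 6.12 to 5.77, 5.87 and 5.70 (-0.40 ± 0.07, adjusted p = 0.0284), and it passed only without MEHP-with-NTD array 2. The classical targets Cpt1a (-0.06 ± 0.10), Pdk4 (-0.15 ± 0.11), Angptl4 (-0.10 ± 0.11), Plin2 (-0.22 ± 0.07), Fabp1 (0.15 ± 0.15) and Cd36 (0.01 ± 0.13) did not pass. Both other probe sets of Cpt1a were higher (0.54 and 0.59, each with an unadjusted p under 0.05), so its direction depends on the probe set. Of 2 other probe sets of Cd36, 1 was higher (0.56, unadjusted p under 0.05) and 1 lower (-0.21). Creb3l3, a lipid regulator of liver and gut, differed by -0.09 ± 0.09. None of 25 sterol synthesis genes (median 0.08) or 24 fatty acid synthesis genes (median -0.12) passed.

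Stress genes did not pass either. Of 38 genes induced by amino acid shortage or unfolded protein 0 were called, 13 had an unadjusted p under 0.05, and the median was 0.06. Of all 20794 genes 4327 had an unadjusted p under 0.05. Ddit3 had a difference of 0.37 ± 0.13 (adjusted p = 0.156), Trib3 0.51 ± 0.17 (0.135), Asns 0.41 ± 0.13 (0.114) and Atf5 0.17 ± 0.14 (0.526). Asns, which makes asparagine, stood at 9.38, 9.69 and 9.31 in controls and 9.93, 9.70 and 9.99 with MEHP and NTD. Among MEHP yolk sacs without NTD it stood at 9.34, 9.69 and 9.32. None of 19 tRNA synthetase genes passed. Antioxidant genes had 0 calls of 37, with Hmox1 at 0.03 ± 0.20 and Nqo1 at -0.18 ± 0.15. The metallothioneins Mt1 (-0.02 ± 0.05) and Mt2 (0.05 ± 0.06) were close to the top of the scale in both groups. Of 25 heat shock genes 1 rose and 1 fell, where 1.4% and 0.976% of all genes did. The small chaperone gene Cryab rose (0.52 ± 0.11, adjusted p = 0.0478) and Hspb1 fell (-0.50 ± 0.09, adjusted p = 0.0284). Hspb1 stood at 10.78, 10.56 and 10.74 in controls and 10.07, 10.34 and 10.17 with MEHP and NTD. Cryab passed in 0 of the 6 fits that leave out an array, and Hspb1 only without MEHP-with-NTD array 2.

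**Figure D5:**
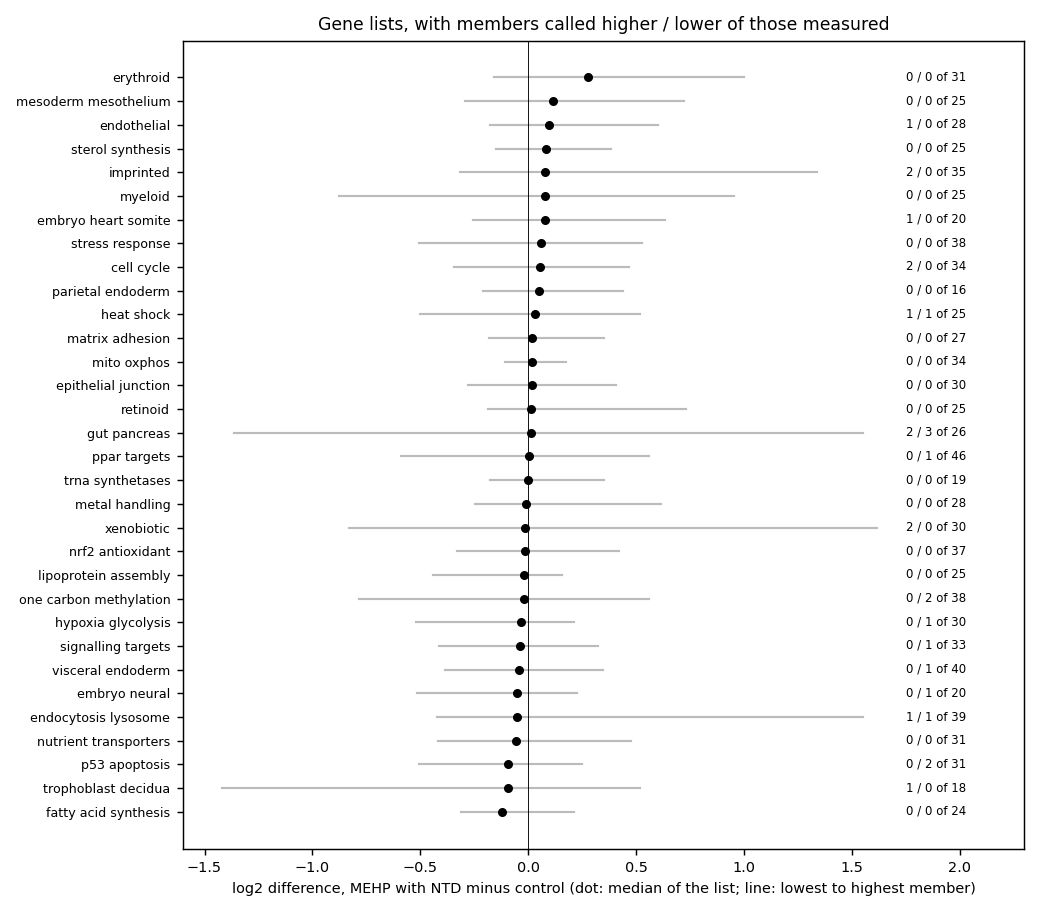
Each of the 32 gene lists is a line from its lowest to its highest member, with the median as a dot, on the axis of log2 difference of MEHP yolk sacs with NTD from controls. Numbers at the right give members called higher and lower of those measured. No list has more than 5 called members, and the erythroid list has the highest median (0.28) with 0 calls.

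DNA methyltransferase transcripts did not pass. Dnmt1 differed by -0.06 ± 0.08 (adjusted p = 0.7), Dnmt3a by -0.02 ± 0.12 and Dnmt3b by 0.07 ± 0.12. Among 38 genes of DNA methylation and one-carbon metabolism 0 rose and 2 fell (5.26% against 0.976%), and the median was -0.02. Besides Gatm, whose product is methylated to creatine, this was Mthfd1, a folate enzyme that hands on one-carbon units. Gatm also belongs to the list drawn up from genes noted earlier in these yolk sacs, so the share is no independent evidence. Mthfd1 stood at 9.97, 10.11 and 10.01 in controls and 9.68, 9.77 and 9.76 with MEHP and NTD (-0.29 ± 0.06, adjusted p = 0.0406). It lost the call without any 1 array. Another of its probe sets was higher (0.33, unadjusted p under 0.05), and the mean of its probe sets differed by -0.01 (adjusted p = 0.926), so its direction depends on the probe set.

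Some genes of division and growth arrest passed. Of 34 cell cycle genes 2 rose (5.88% against 1.4%), 0 fell and 32 did not pass. Mki67, the proliferation antigen, stood at 10.41, 10.48 and 10.37 in controls and 10.84, 10.70 and 10.72 with MEHP and NTD (0.34 ± 0.07, adjusted p = 0.0487). Ccnb2, a mitotic cyclin, moved from 9.37, 9.46 and 9.47 to 9.81, 9.71 and 9.89 (0.37 ± 0.06, adjusted p = 0.0289). Of 31 p53 target and apoptosis genes 2 fell (6.45% against 0.976%) and 0 rose. Cdkn1a, the inhibitor p21, stood at 8.63, 8.47 and 8.55 in controls and 8.17, 8.26 and 8.08 with MEHP and NTD (-0.38 ± 0.08, adjusted p = 0.0475). The control with NTD had 7.98. Bcl2, which blocks apoptosis, fell by 0.46 ± 0.07 (adjusted p = 0.0245), and its 4 other probe sets had differences of -0.15 to -0.02. Mki67 and Cdkn1a passed in 0 of the 6 fits that leave out an array, Ccnb2 only without MEHP-with-NTD array 2, and Bcl2 only without control 1 or MEHP-with-NTD array 1. After cyclic loess Mki67 did not pass (adjusted p = 0.0706). Among 33 targets of developmental signals 1 fell (3.03% against 0.976%), the Notch ligand gene Dll1 (-0.41, adjusted p = 0.0289), and 32 did not pass. None of 25 retinoid genes or 34 genes of mitochondrial respiration passed, nor did the glucose transporter gene Slc2a1 (0.09) or Ldha (-0.03).

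Blood genes mostly had positive differences with MEHP and NTD, and none passed. Of 31 primitive erythroid, globin and heme genes 28 had a positive difference, the median was 0.28 (-0.01 over all genes), and 0 were called. Only 1 of the 31 had an unadjusted p under 0.05, where 4327 of all 20794 genes did. The 31 genes were measured on the same arrays, so the count of 28 is not a count of separate results. The erythroid transcription factor gene Klf1 had a difference of 0.44 (adjusted p = 0.526). The median level of the list was 7.35 to 8.54 in controls and 7.86 to 9.05 with MEHP and NTD, so the groups overlapped. The embryonic globin Hbb-bh1, at levels of about 13, differed by 0.09 ± 0.09. Fli1, a factor of blood and endothelium, was the 1 rise among 28 endothelial genes (3.57% against 1.4% of all genes). Its difference was 0.46 ± 0.10 (adjusted p = 0.0442), with levels of 7.62, 7.39 and 7.26 in controls and 7.93, 7.74 and 7.97 with MEHP and NTD. It passed only without control 1. Pecam1 (0.09 ± 0.07) and the macrophage receptor gene Csf1r (0.15 ± 0.16) did not pass. None of 25 myeloid, 25 mesoderm and mesothelium or 27 matrix genes was called. The muscle-type mesoderm gene Tagln had 0.70 (adjusted p = 0.445) and Acta2 0.39 (0.427).

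Neural, heart and trophoblast markers were low. Of 20 embryonic neural genes 1 fell (5% against 0.976% of all genes). This was Sox1, from 3.86, 3.74 and 3.80 to 3.34, 3.45 and 3.53 (-0.36 ± 0.07), which is at the nonspecific level. Of 20 heart and somite genes 1 rose (5% against 1.4% of all genes). This was the troponin gene Tnnt2, from 4, 3.92 and 3.94 to 4.47, 4.65 and 4.41 (0.56 ± 0.09, adjusted p = 0.0252). Heart markers averaged 4.10 to 4.44 in controls and 4.39 to 4.56 with MEHP and NTD, against 8.70 to 8.95 in control embryos. Trophoblast and decidua markers averaged 3.94 to 4.58 and 3.86 to 4.05. Of 18 genes in that list only Cryab, which other tissues share, was called (5.56% against 2.38%). Parietal endoderm markers were not low. They averaged 6.54 to 6.76 in controls and 6.64 to 6.90 with MEHP and NTD. The median level of the 16 genes of that list was 8.30 to 8.46 and 8.59 to 8.64, with no overlap, though none of the 16 passed. This was not particular to that list. The mesoderm and mesothelium list stood at 8.42 to 8.48 and 8.74 to 8.80. The matrix, one-carbon and imprinted lists did not overlap either, nor did the gut and trophoblast lists, which lay lower with MEHP and NTD. Of all single genes 25.5% did not overlap. The part of neural, heart, trophoblast or parietal endoderm tissue in the results was not tested. Among families of symbols with at least 50 genes tested, looked at after values were seen, zinc finger genes named Zfp had the most rises, 13 of 342, with 3 falls (4.68% called against 2.38%).

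The other contrasts among yolk sacs share arrays with the main one and are given beside it. MEHP yolk sacs without NTD against the same controls had 65 calls (0.313%), 40 higher and 25 lower, and with NTD against without NTD had 0 calls (2002 with an unadjusted p under 0.05, smallest adjusted p 0.0878). Counts of calls do not test whether the groups differ. Over the 291 rises the median difference from controls was 0.44 with NTD and 0.28 without, and over the 203 falls -0.36 and -0.27. These genes were chosen by the first of each pair. With 1 fit over all 20 arrays 30 genes passed in the latter and with trend and robust variances 13. The differences of both MEHP groups from the shared controls are given side by side. For Cyp1a1 the difference was 1.93 without NTD and 1.62 with it, for Kcnq1ot1 1.32 and 1.34, for Iapp -1.15 and -1.36, and for Pmf1 -0.63 and -0.65. For Ctse it was 0.13 and 1.55, for Cd82 -0.06 and -0.87, for Pcdh18 0.11 and 0.72, and for Foxa2 -0.01 and -0.33. None of these genes passed in the direct test of NTD among MEHP yolk sacs. For Cndp1, where that test gave the smallest adjusted p, the difference was 0.72 ± 0.10 (adjusted p = 0.0878).

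Embryos share no array with these yolk sacs, though they may come from the same conceptuses. MEHP embryos with NTD against control embryos had 3006 calls (14.5%), 1109 higher (5.33%) and 1897 lower (9.12%). Of the 291 yolk sac rises 125 (43.0%) rose in embryos and 3 fell, which is 11.3% of the embryo rises. Of the 203 yolk sac falls 81 (39.9%) fell in embryos and 3 rose, which is 4.27% of the embryo falls. Of the 81 shared falls 60 lie below the median gene. Among the 90 yolk sac falls at or above it, 21 (23.3%) fell in embryos, where 3.39% of all genes at that level did, and among the 233 such rises 100 (42.9%) rose, against 8.25%. The embryo controls also had the higher nonspecific level (3.92 to 4.05 against 3.65 to 3.78 with MEHP and NTD), and its part in the overlap was not tested. Kcnq1ot1 (1.43, adjusted p = 0.00123), Galc (1.5), Airn (0.79), Tnnt2 (0.72) and Cryab (0.80) rose in embryos, and Eepd1 (-0.40), Slc7a4 (-0.60) and Meltf (-0.51) fell.

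The difference of the effect between tissues, tested in 1 fit with 8 group means, was called for 20 genes (0.0962%). The effect had the higher value in yolk sac for 12 (0.0577%) and in embryo for 8 (0.0385%). Cyp1a1 had the smallest adjusted p, with an embryo difference of -0.18 and a tissue difference of 1.80 ± 0.17 (adjusted p = 0.000222). Cndp1 differed by 0.06 in embryos, and its tissue difference was 1.06 ± 0.13 (adjusted p = 0.00388). Control embryos had mean levels of 4.07 for Cyp1a1 and 4.28 for Cndp1, close to the nonspecific level. For Iapp the tissue difference had an adjusted p of 0.05 after rounding and was not called. Among the yolk sac calls, 5 rises and 1 fall had a called tissue difference.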

How the data were processed

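Affymetrix arrays measured 3 control yolk sacs and 3 yolk sacs exposed to MEHP with NTD, among 20 arrays. The authors deposited RMA log2 values per probe set, and RMA, limma and R 2.15.1 are named per the submitters' processing notes. Columns were assigned by the group means in the authors' deposited comparison tables, which only 1 of 1022 splits of a tissue's arrays reproduced to rounding. Copies of the values under other sample headings were not used for grouping. Of 45141 probe sets, 38367 had a symbol. Symbols were updated through Entrez numbers and RefSeq (GRCm38.p6), and the brightest probe set stood for each of 20794 genes, with no filter on low levels. limma 3.58.1 in R 4.3.3 fitted 1 mean per group over 10 yolk sac arrays, and 8 group means over 20 arrays for the tissue difference, where both tissues were treated as independent. Benjamini-Hochberg adjustment ran over all genes at a threshold of 0.05. The median SE of a difference was 0.08, and the number of arrays limits the precision. The code was tested on simulated data. Figures were drawn with matplotlib 3.10.9.

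The genes named are the 15 largest called rises and falls with an official symbol whose higher group mean reached the median gene level, up to 4 called members of each of 32 lists, and a fixed set of textbook genes. Other genes were named after their values were seen. Members and lists were chosen with earlier results of these data known. Alternatives were other sets of arrays, normalizations, variance settings, filters, probe set rules, a covariate and leaving out each array. Fits that used the Actb ratio were chosen after seeing the data. Some genes of the fixed set and of the lists are not reported here.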

Additional observations from a re-analysis of the deposited data

Results flagged for a closer look

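The effect of MEHP with NTD differed between yolk sac and embryo for 20 genes by a test of the difference itself in 1 limma fit over all 20 arrays. For Cyp1a1 the yolk sac effect exceeded the embryo effect by 1.80 (adjusted p = 0.000222). For Cndp1 it did so by 1.06 (adjusted p = 0.00388). The count of 20 genes ran from 11 to 173 when single arrays were left out, and the 173 came without control embryo 3, whose Actb 3'/5' log2 ratio of 0.88 was the highest among the control embryos. The part of that ratio in the count was not tested.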

How the results depend on the processing

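No paired analysis was possible because the value columns carry no replicate numbers of the labels, so a fit with a replicate block was not run. For MEHP yolk sacs with NTD against controls (291 rises, 203 falls), the 6 arrays alone gave 8 and 7, the nonspecific level as covariate 0 and 1, leaving out the arrays with an Actb ratio above 0.7 gave 0 and 0, and the Actb ratio as covariate 4 and 1. Leaving out dim genes gave 135 falls. Leaving out 1 array gave 13 to 118 rises and 5 to 74 falls. Trend and robust variances gave 429 rises and 283 falls, and quantile normalization 199 and 186. For MEHP with against without NTD (0), all 20 arrays in 1 fit gave 30 and trend and robust variances 13, and leaving out 1 array gave 0 to 1. For MEHP without NTD against controls (65), all 20 arrays gave 191, trend and robust variances 199, leaving out dim genes 28, the nonspecific level as covariate 0, leaving out the high Actb ratios 0 and the Actb ratio as covariate 1, and leaving out 1 array gave 1 to 2. For the tissue difference (20), trend and robust variances gave 50, leaving out dim genes 3 and the mean of all probe sets 31, and leaving out 1 array gave 11 to 173. All 46 named called genes kept their direction in every fit run. In fits that leave out arrays this was fixed in advance, since their values did not overlap between the groups. The fits on the 6 or all 20 arrays, with other variances or without dim genes leave the difference itself unchanged. Only fits with other normalizations, other probe sets or a covariate could have changed a direction. The cause of these shifts was not tested. Fits on fewer arrays have fewer degrees of freedom. For MEHP without NTD against controls, the 6 arrays of those groups alone gave 90 calls. Of the 46, 13 passed with the 6 arrays alone, 39 with all 20 arrays, 43 after cyclic loess, 42 after quantile normalization, 34 with the mean of probe sets and 36 of 36 measured without dim genes. With the Actb ratio as covariate 3 passed, Cyp1a1 (1.91), Cd55 (0.88) and Iapp (-1.5), and with the nonspecific level as covariate 0 passed. Small changes of genes near the nonspecific level cannot be measured.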
